A study of Mus musculus with 3 samples.

Results

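Cell cycle genes were followed in a chromatin immunoprecipitation sequencing (ChIP-seq) study of SRF, the serum response factor, in mouse cornea. The list named 38 genes chosen by their function, with earlier results of these data already known. The authors assigned at least 1 SRF region to 36 of them, of 16697 genes with a region in the study. Those 36 genes held 72 of the 31850 regions, and no region was shared by 2 of them. Cdk2, the kinase that drives S phase entry, and Ccne2, one of its cyclin E partners, were listed with no region and have no values below.

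Whole corneas came from mice of mixed background aged about 8 weeks, with no treatment. Of the antibody libraries, 1 was titled mutant, from Dstn-corn1 mice, whose mutation removes working destrin (an actin-severing and depolymerizing factor), and 1 was titled wildtype. The growth protocol names mutant mice for every library, so genotype rests on the titles. At Dstn itself, all 3 regions were listed at 0 in the mutant library and reached up to 35 in wildtype. Values of the third library, an input without antibody, were not used here. With 1 library per genotype there is no replicate check, no p-value and no error on a single height. A height is the largest signal within a region, in the units deposited, and the depth behind it is unknown. Distances run from the gene start the authors used to the region centre and are negative upstream. Binding heights do not measure which cells are present, so the tissue label was not checked against markers. In whole tissue, fewer cells with a bound site and less binding per cell cannot be told apart.

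Cells divide by switching cyclin-dependent kinases (CDKs) on and off in order. D-type cyclins with CDK4 and CDK6 start the inactivation of the retinoblastoma protein, which frees E2F factors to switch on S phase genes, and cyclins A and B with CDK1 then drive mitosis. CDK inhibitors oppose these kinases. SRF is best known for immediate early and actin cytoskeleton genes, and it binds a DNA motif named the CArG box. In the adult corneal epithelium division is largely confined to the basal layer, and the epithelium of Dstn-corn1 mutants is known to proliferate excessively.

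SRF regions lay near most of the cell cycle genes. An interval called in wildtype was assigned to 36 of the 38 genes (94.7%), against 65.5% of the protein-coding reference genes, and an interval called in mutant to 27 (71.1%), against 49.6%. The genes without a mutant interval were Mcm3, Mcm6, Cdk1, Birc5, Ccnb1, E2f1, Ccne1, Plk1 and Ccnb2. Among genes with a region, a mutant interval was assigned to 27 of these 36 and to 12330 of all 16697, which are close shares. Of the 36 genes with a region, 23 (63.9%) had one within 1 kb of their start, against 48.3% of all genes with a region. A CpG island, a stretch rich in CG dinucleotides typical of promoters, overlapped 37 of the 72 regions (51.4%) and 29.4% of all regions with an assigned gene. Both libraries had a call at 41 of the 72 regions (56.9%, against 51.0% of all regions with an assigned gene). Wildtype alone had a call at 27 (37.5%, against 46.6%) and mutant alone at 4 (5.56%, against 2.38%). Each gene held 1 to 5 regions, with a median of 2, as for all genes.

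The sites were mostly modest in height. Taking each gene's highest region, by the mean of both libraries, the median height of the 36 genes was 17 in mutant and 34 in wildtype, against 18 and 40 over all genes with a region. Wildtype heights ran from 12 at Mcm6 to 243 at Aurka, and 12 of the 36 genes passed 50. Among all 16697 genes, Cdc25a at 53 ranked 5213th by wildtype height and Plk2 at 49 ranked 6044th. Passing 50 was therefore not particular to these genes. Aurka ranked 76th among all genes by wildtype height, and the next member, Cdkn1a, ranked 1111th. The summits of the same region in the 2 libraries lay a median of 32 bp apart over the 41 regions called in both, as over all such regions. They were within 100 bp in 36 of these 41 regions (87.8%), against 94.1% of all regions called in both.

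Many regions were assigned to other genes as well. In 43 of the 72 regions (59.7%) the authors listed other genes too, against 34.1% of all regions with an assigned gene. These shares are not like for like. The 72 regions were found by gene name, so a region listing several genes was more likely to be taken. The 34.1% counts each of 24263 regions once, although they make 35802 pairs of gene and region. The other region shares above have the same limit. For 11 of the 36 genes (30.6%) the highest region lay nearer to another gene's start than to the member's own, against 31.6% of all genes. These were Aurka (Cstf1), Pcna (Cds2), Cdc20 (Elovl1), Ccnb1 (Cenph), Cdc25b (Cenpb), Mcm7 (Zfp113), Mcm2 (Tpra1), Cdk4 (March9), Ccnd2 (9330179D12Rik), E2f1 (Actl10) and Cdc25c (Gfra3).

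**Figure D1:**
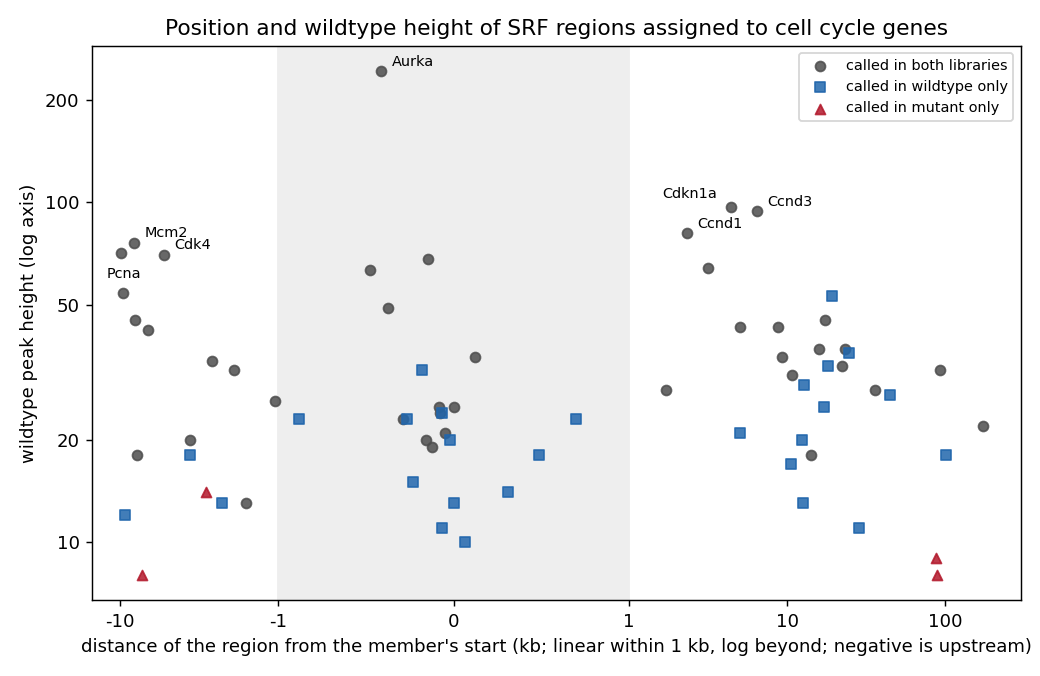
Wildtype peak height (log axis) of the 72 SRF regions assigned to cell cycle genes against distance from the member's start in kb (linear within 1 kb, log beyond; grey band, within 1 kb). Marker shape and colour give the library in which a region was called; the region at Aurka stands highest at 243, and the 4 regions called in mutant only all have wildtype heights of 14 or less.

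Promoter sequence was looked at because SRF regions lay within 1 kb of the start of 23 of these genes. RefSeq promoters of build GRCm38.p6, which is mm10, the build the submitters' notes name, cover 250 bases before to 50 after a gene start and were found for 29 of the 38 genes. Motifs were searched on both strands. The search took all 29 promoters, whether or not an SRF region overlapped them. Cdk2, for example, had no region, and the only region of Mcm3 lay 18256 bp from its start. The shares that follow describe the list of genes, not promoters bound by SRF. The CArG box matched in 0 of the 29 promoters, where 1.63% of all 32851 reference promoters held one. At most 1 letter off the CArG box, 5 of 29 (17.2%) matched, namely Cdkn2c, E2f3, Mcm3, Mcm6 and Mcm7, against 21.1% of all; this looser search was added after the strict one had been seen. The ETS core CCGGAAGT, the type of site that the TCF cofactors of SRF recognise, was found among the 29 at Aurka only (3.45%, against 3.89% of all). It also stood in the promoter of Cenph, which overlaps the region assigned to Ccnb1.

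Motifs known from cell cycle promoters had larger shares among the members than among all reference promoters. CCAAT, the box bound by NF-Y, stood in 21 of 29 promoters (72.4%, against 37.4% of all). The cell cycle homology regions, bound by the MuvB complex, stood in 9 as TTTGAA (31.0%, against 17.9%) and in 4 as TTCGAA (13.8%, against 1.56%). Any of the E2F sites TTTCGCGC, TTTGGCGC and TTTCCCGC stood in 8 (27.6%, against 1.84%): Cdk1, Cdk2, E2f3, Mcm3, Mcm5, Mcm6, Mcm7 and Cdc25a. E2F matches can overlap, as they do at Mcm5 and Mcm6. A match is a description of the letters and not a binding site, and no match says only that these letters are not in the window.

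The 250 bases upstream of the start are printed for genes where these features can be seen beside an SRF region, 5′ to 3′ on the gene's strand, with matches of the searched motifs in capitals. Aurka and Mcm5 had the highest regions within 1 kb of a start among genes with a reference promoter; the next, Plk2, Cdk6 and Cdk4, had no match and are not shown. Cstf1, the neighbour whose window holds the Aurka summit, and Cdk1, Top2a and Cdc25a were added after their values were seen. Positions count from the reference start, with -1 the base before it.

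Aurka, chr2:172370571-172370820, minus strand, with the ETS core on the opposite strand at -132 and CCAAT at -51 and -19:
Aurka: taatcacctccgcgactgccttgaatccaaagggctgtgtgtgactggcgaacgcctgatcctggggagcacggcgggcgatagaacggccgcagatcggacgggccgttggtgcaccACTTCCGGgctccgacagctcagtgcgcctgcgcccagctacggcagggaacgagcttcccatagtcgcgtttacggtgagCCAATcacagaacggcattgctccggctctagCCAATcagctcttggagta
Cstf1, chr2:172370753-172371002, plus strand, with no match:
Cstf1: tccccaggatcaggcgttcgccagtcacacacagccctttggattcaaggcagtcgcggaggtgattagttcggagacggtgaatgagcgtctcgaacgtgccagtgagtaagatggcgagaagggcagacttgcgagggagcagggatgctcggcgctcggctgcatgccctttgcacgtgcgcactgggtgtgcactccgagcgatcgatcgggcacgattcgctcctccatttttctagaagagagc
Mcm5, chr8:75109259-75109508, plus strand, with TTTCGCGC at -153, an overlapping TTTGGCGC on the opposite strand at -149, and CCAAT at -77 and -22:
Mcm5: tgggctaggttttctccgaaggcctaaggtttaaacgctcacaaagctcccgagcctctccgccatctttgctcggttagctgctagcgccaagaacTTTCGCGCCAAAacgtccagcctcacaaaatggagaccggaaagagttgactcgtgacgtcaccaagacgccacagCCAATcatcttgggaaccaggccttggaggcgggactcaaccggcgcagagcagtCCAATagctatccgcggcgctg
Cdk1, chr10:69352913-69353162, minus strand, with TTTCGCGC at -131, TTTGAA at -71 and -15, and CCAAT on the opposite strand at -208, -80 and -48:
Cdk1: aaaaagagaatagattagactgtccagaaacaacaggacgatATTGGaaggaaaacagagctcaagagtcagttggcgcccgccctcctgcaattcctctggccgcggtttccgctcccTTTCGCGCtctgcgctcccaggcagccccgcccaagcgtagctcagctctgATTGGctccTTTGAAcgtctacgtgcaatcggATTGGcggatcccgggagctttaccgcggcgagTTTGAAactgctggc
Top2a, chr11:99024190-99024439, minus strand, with TTCGAA at -140 and -120, TTTGAA at -179 and on the opposite strand at -23, and 6 CCAAT boxes:
Top2a: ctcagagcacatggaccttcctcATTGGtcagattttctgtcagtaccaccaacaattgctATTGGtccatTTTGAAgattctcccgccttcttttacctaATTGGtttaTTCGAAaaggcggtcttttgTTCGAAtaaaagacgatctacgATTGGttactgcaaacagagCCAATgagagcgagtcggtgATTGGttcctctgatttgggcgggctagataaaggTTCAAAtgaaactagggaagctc
Cdc25a, chr9:109875329-109875578, plus strand, with TTTGGCGC at -67 and CCAAT on the opposite strand at -131 and -81:
Cdc25a: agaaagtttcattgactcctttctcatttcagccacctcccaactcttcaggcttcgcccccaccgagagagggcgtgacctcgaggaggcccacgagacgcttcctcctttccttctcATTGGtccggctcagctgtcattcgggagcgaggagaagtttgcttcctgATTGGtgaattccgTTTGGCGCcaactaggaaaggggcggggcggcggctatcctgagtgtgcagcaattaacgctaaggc

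SRF summits could be set against these letters. At Aurka and Cstf1, which start in opposite directions, the wildtype summit lay at -91 from the Cstf1 start and at -342 from the Aurka start, outside the Aurka window. At Mcm5 both summits lay at -805, upstream of the printed bases. The wildtype summit of the Cdk1 promoter region lay at -80, beside the middle CCAAT match. At Top2a the summits lay at -99 in wildtype and -3 in mutant, and at Cdc25a the wildtype summit lay at -251. Over all members, 28 reference promoter windows, including those of neighbouring genes, overlapped 27 of the 72 regions. Of these windows 21 held a summit, a share that was not computed over all regions. The windows were taken because they overlap a region, so this count is no result about the members. A CArG box stood in 0 of the 28 windows, where 1.63% of all reference promoters held one. At that share, 0 in 28 windows is no result about the members. The windows cover only part of each region, and the rest of the regions was not searched.

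**Figure D2:**
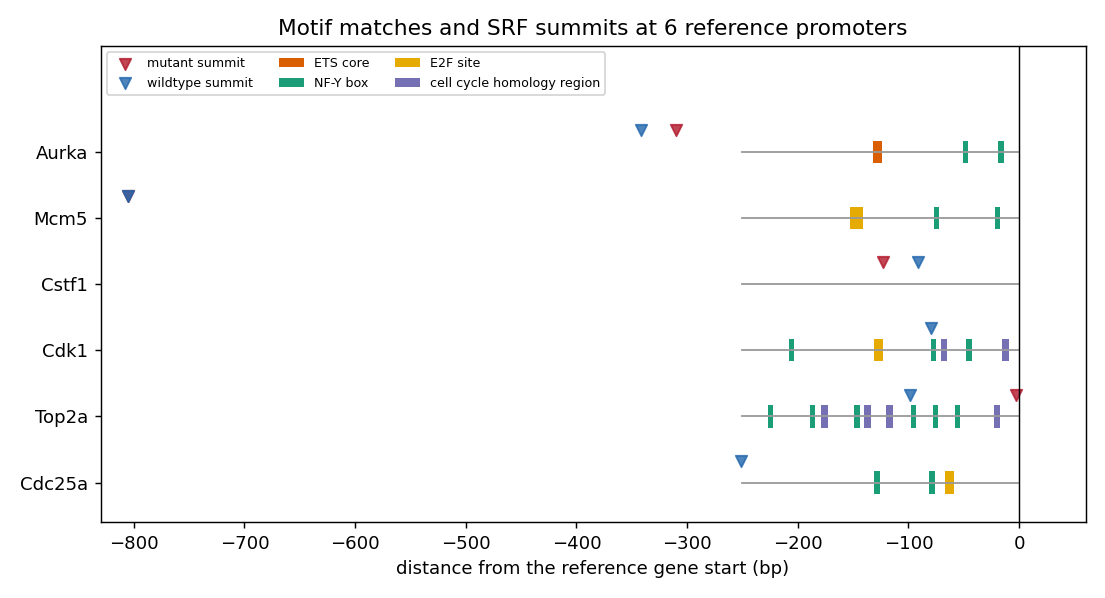
Motif matches (coloured bars) in the 250 bp upstream of 6 reference gene starts and the SRF summits called in the mutant (red) and wildtype (blue) libraries, by distance from the start in bp. NF-Y boxes are the CCAAT matches; the Aurka summits lie at -310 and -342, beyond the printed bases, whereas the same summits lie at -123 and -91 from Cstf1.

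The comparison of genotypes asked how SRF occupancy at these genes differed between mutant and wildtype cornea. The mutant height was below wildtype at 35 of 36 genes, but it was so at 95.9% of all genes. The scaling between the libraries was not stated in the sources used here. Each ratio is the log2 of mutant over wildtype height, both plus 1, a scale on which low regions differ by less than their raw heights do. The median over the 36 genes was -0.96, and over all genes -1.08. A ratio of at least 2-fold lower in mutant was reached by 17 of 36 genes (47.2%), against 57.7% of all genes, and 2-fold higher by 0, against 0.198%. With mutant heights multiplied by 2.1, so that the regions with a call in both libraries have equal medians, the median turned to 0.068, and to -0.050 over all genes. Then 20 of the 36 genes were higher in mutant, against 45.6% of all genes. At that scaling 3 genes, Ccna2, Cdk1 and Mcm3, were at least 2-fold lower (8.33%, against 5.83%) and Cdkn2c was at least 2-fold higher (2.78%, against 4.2%). Of these, Cdk1 and Mcm3 had mutant heights of 5 and 6 and no mutant call, where the lowest called interval had 9. Because scaling moves the ratios, single genes are read below against the median of all genes.

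**Figure D3:**
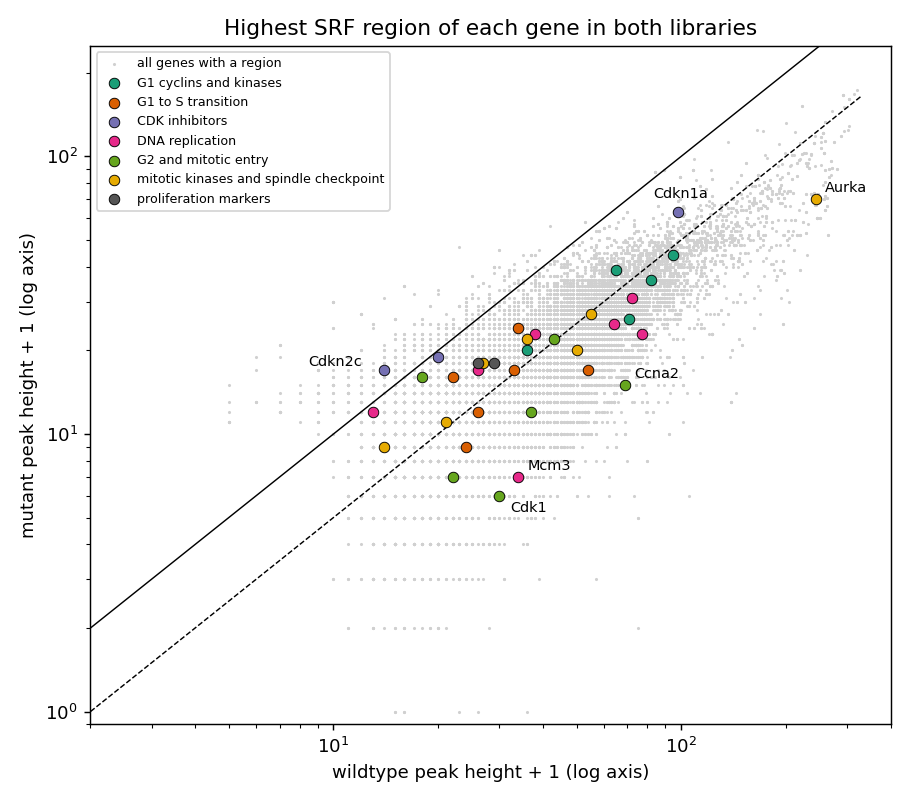
Mutant against wildtype peak height of each gene's highest SRF region, each plus 1, on log axes; grey points are all 16697 genes and coloured points the 36 cell cycle genes by role. The solid line marks equal values and the dashed line a 2-fold lower mutant value; most members lie within the grey cloud around the dashed line, with Ccna2, Cdk1 and Mcm3 well under it.

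The D-type cyclins and their kinases had the highest regions as a group, with median heights of 35 in mutant and 70 in wildtype over 5 genes. All 5 had intervals in both libraries. Of all 16697 genes with a region, 12330 had a mutant interval and 16523 a wildtype interval. The ratios of their highest regions ran from -1.45 to -0.74. At the region nearest to the start, Ccnd3 had 0.0 and Cdk4 -0.13, while Ccnd1, Ccnd2 and Cdk6 kept the same values. Ccnd3, the cyclin D3 gene, reached 43 in mutant and 94 in wildtype at a region 6403 bp inside the gene (chr17:47510986-47511922). Its other regions had heights of 14 and 14, 13 and 8, 17 and 32, and 5 and 18 in mutant and wildtype. The 13 and 8 region, 88489 bp inside the gene, was called in mutant only, as was the 14 and 14 region at the start of Taf8. RefSeq places its Ccnd3 start at the 13 and 8 region, whose mutant summit is 5 bp from it, so what counts as the Ccnd3 promoter differs between annotations. Ratios within this 1 gene thus ran from -1.66 to 0.64.

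Ccnd1, the cyclin D1 gene, had 35 in mutant and 81 in wildtype at 2314 bp inside the gene (chr7:144937188-144938034), with both summits at the same base, and 14 and 20 at -3613 bp. Ccnd2, the cyclin D2 gene, had 38 and 64 at 3153 bp inside the gene (chr6:127147538-127148253) and 26 and 43 at 8723 bp. In all 3 D-type cyclin genes the highest site was inside the gene and more than 1 kb past the authors' start. Cdk4, the main partner kinase of these cyclins, had 25 and 70 at -5274 bp, 1855 bp past the March9 start, but 21 and 23 at -286 bp. The log2 ratios of these Cdk4 regions were -1.45 and -0.13. Cdk6, the alternative partner, had 19 and 35 at its start and 19 and 22 at 172630 bp inside the gene.

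Genes of the G1 to S transition were lower, with median heights of 15.5 in mutant and 28.5 in wildtype over the 6 with a region, and 3 of 6 lay above the median ratio of all genes. Cdc25a, a phosphatase that activates CDK2, had 3 regions, at 16 and 53 past its end (chr9:109894456-109895228), 16 and 45 inside it, and 9 and 32 at the promoter printed above. All 3 were at least 2-fold lower in mutant, with ratios of -1.67, -1.44 and -1.72. Ccne1, the cyclin E1 gene, had 8 in mutant and 23 in wildtype at -267 bp. E2f1, a transcription factor of S phase genes, had 11 and 25 at 17125 bp from its start, near Actl10, and 10 and 15 at -230 bp. E2f3, its relative, had 15 and 21 at its start.

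Rb1, the retinoblastoma gene, had 4 regions, the highest at 23 in mutant and 33 in wildtype 22356 bp inside the gene, then 14 and 27 at 44675 bp, and 7 and 11 at its start. A region 87652 bp inside Rb1, 248 bp past the Lpar6 start, was called in mutant only, at 11 and 9. Myc, a growth-promoting transcription factor and immediate early gene, had 4 regions close to its start. They reached 16 and 32 at -1898 bp (chr15:61983105-61983782), 11 and 23 at -882 bp, 9 and 14 at 308 bp inside and 16 and 28 at 1703 bp inside. All 4 ratios lay above the median of all genes, and the highest were those of the regions inside the gene, -0.59 and -0.77.

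The CDK inhibitor genes had the highest median ratio of the 7 roles. All 3 lay above the median ratio of all genes, and their median was -0.074, or 0.96 with common scaling. Cdkn1a, which encodes the inhibitor p21, had the highest member region after Aurka, at 62 in mutant and 97 in wildtype. It lay 4384 bp inside the gene (chr17:29094423-29096317), over a CpG island, spanned 1894 bp and was the longest of the 72 regions. The log2 ratio was -0.64 as deposited and 0.42 with common scaling. Cdkn1b, the p27 gene, had 18 and 19 at -125 bp, and Cdkn2c, the p18 gene, 16 and 13 at -1599 bp. RefSeq places its Cdkn2c start within this region, where the wildtype summit lies at -60. Cdkn2c was the 1 gene of the 36 with a higher mutant height. Both of these regions are low, and over all genes with a mean height under 20 the median ratio was also higher, at -0.89, than the -1.18 of genes at or above 40.

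DNA replication genes had median heights of 22 in mutant and 37 in wildtype over 7 genes, and a wide range of ratios, from -2.28 to -0.12. The MCM proteins form the helicase that unwinds DNA at replication origins. Mcm2 had 22 and 76 at -8125 bp (chr6:88906513-88907298), 4654 bp past the Tpra1 start, 19 and 43 inside its own gene, and 11 and 18 at the start of Tpra1. Mcm5 had 24 and 63 at the region over its promoter (chr8:75108355-75109754) and 17 and 37 at 23236 bp. Mcm3 had 6 and 33 at a single region past its end (chr1:20801666-20802249), the second lowest ratio of the 36 genes. Mcm4, which starts opposite Prkdc, had 16 and 25 between the genes, and Mcm6 had 11 and 12 at -9239 bp and 7 and 10 at its start.

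Mcm7 carries the microRNA genes Mir25, Mir93 and Mir106b in an intron, and the authors listed these with each of its 3 regions. The heights were 22 in mutant and 37 in wildtype at the start of Zfp113, 28 and 31 at the start of Cops6, and 11 and 23 at 700 bp inside Mcm7. The first and second of these have equal mean heights but log2 ratios of -0.72 and -0.14, and the first is the one used in the counts. Pcna, the sliding clamp of DNA polymerases, had 30 and 71 at -9803 bp (chr2:132262581-132263386), which is at -274 bp from the Cds2 start. A region 485 bp inside Pcna had 10 and 18, and a region past its end 9 and 20. Of the 7 replication genes, Mcm5 and Mcm4 had their highest region within 1 kb of the start (28.6%, close to the 27.2% of all genes).

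Genes of G2 and mitotic entry had the lowest median ratio of the 7 roles, -1.64 over 6 genes, with 4 of the 6 below the median of all genes. Cdk1, Ccnb1 and Ccnb2 had no mutant interval. At Cdk1 and Ccnb2 the mutant heights, 5 and 6, lay under the lowest called height, 9. The median lies between the ratios of Ccnb2, -1.65, and Cdc25c, -1.62, and the Cdc25c region nearest to its start had -0.07. Ccna2, the cyclin A2 gene, had 14 in mutant and 68 in wildtype at -144 bp (chr3:36571619-36572661), 4.86 times as high in wildtype. Its average heights were 8 and 20, a smaller difference, with a log2 ratio of -1.22 against -2.20 for the peak heights. Its summits were 32 bp apart, and its region was called in both libraries. Cdk1, the kinase of mitotic entry, had 5 and 29 at 12768 bp inside the gene (chr10:69339865-69340423) and 5 and 24 at the promoter printed above. Both Cdk1 regions were called in wildtype only, and its log2 ratio of -2.32 was the lowest of the 36 genes. Ccnb2, a cyclin B gene, had 6 and 21 at 5069 bp inside the gene and 8 and 13 at 12607 bp.

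Ccnb1, the main cyclin B gene, had a single region at 15 in mutant and 17 in wildtype, 10526 bp from its start and at -61 bp from the Cenph start. Cdc25b, a phosphatase that activates CDK1, had 21 and 42 at the start of Cenpb and, in a neighbouring region called in mutant only, 10 and 8. Cdc25c, its relative, had 11 and 36 at 24618 bp from its start but 19 and 20 at -156 bp, with ratios of -1.62 and -0.070. Another Cdc25c region, at the start of Fam53c, had 13 and 18. The average height of the promoter region was 8.00 in mutant and 7.92 in wildtype.

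Mitotic kinase and spindle checkpoint genes had median heights of 19 in mutant and 35 in wildtype, and 5 of 7 lay above the median ratio of all genes. Aurka, the Aurora A kinase of spindle assembly, had 69 in mutant and 243 in wildtype (chr2:172370248-172371586), 3.52 times as high in wildtype. The average heights over this region were 18.5 and 56.4, and the summits were 32 bp apart. A second region at -7989 bp, 7492 bp past the Cstf1 start, had 20 and 45, with both summits at the same base. The ratios of the 2 regions were -1.80 and -1.13. Cstf1, from whose start the first region lies at -86 bp, encodes a subunit of the cleavage stimulation factor of messenger RNA.

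Aurkb, the Aurora B kinase of chromosome segregation, had 26 and 54 at -9528 bp and 10 and 18 past its end. Its partner Birc5, the survivin gene, had 10 and 20 at its start and 6 and 13 at -2246 bp, both called in wildtype only. Plk2, a polo-like kinase gene known to respond early to serum, had 19 and 49 at -375 bp (chr13:110394074-110395265) and 15 and 34 at -2599 bp. Plk1, the polo-like kinase of mitosis, had 8 and 13 at its start. Bub1, a spindle checkpoint kinase gene, had 17 and 24 at its start and 17 and 26 at -1044 bp. At the Bub1 start the average height was higher in mutant, at 9.78 against 9.35. Cdc20, an activator of the anaphase-promoting complex, had 21 and 35 at a region 23 bp past the Elovl1 start and 9227 bp from its own start.

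The 2 genes most used as proliferation markers had low regions. Top2a, topoisomerase II alpha, had 17 in mutant and 25 in wildtype over its start, and Mki67, the Ki-67 antigen gene, had 17 and 28 at 35929 bp from its start. Their ratios, -0.53 and -0.69, both lay above the median of all genes.

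**Figure D4:**
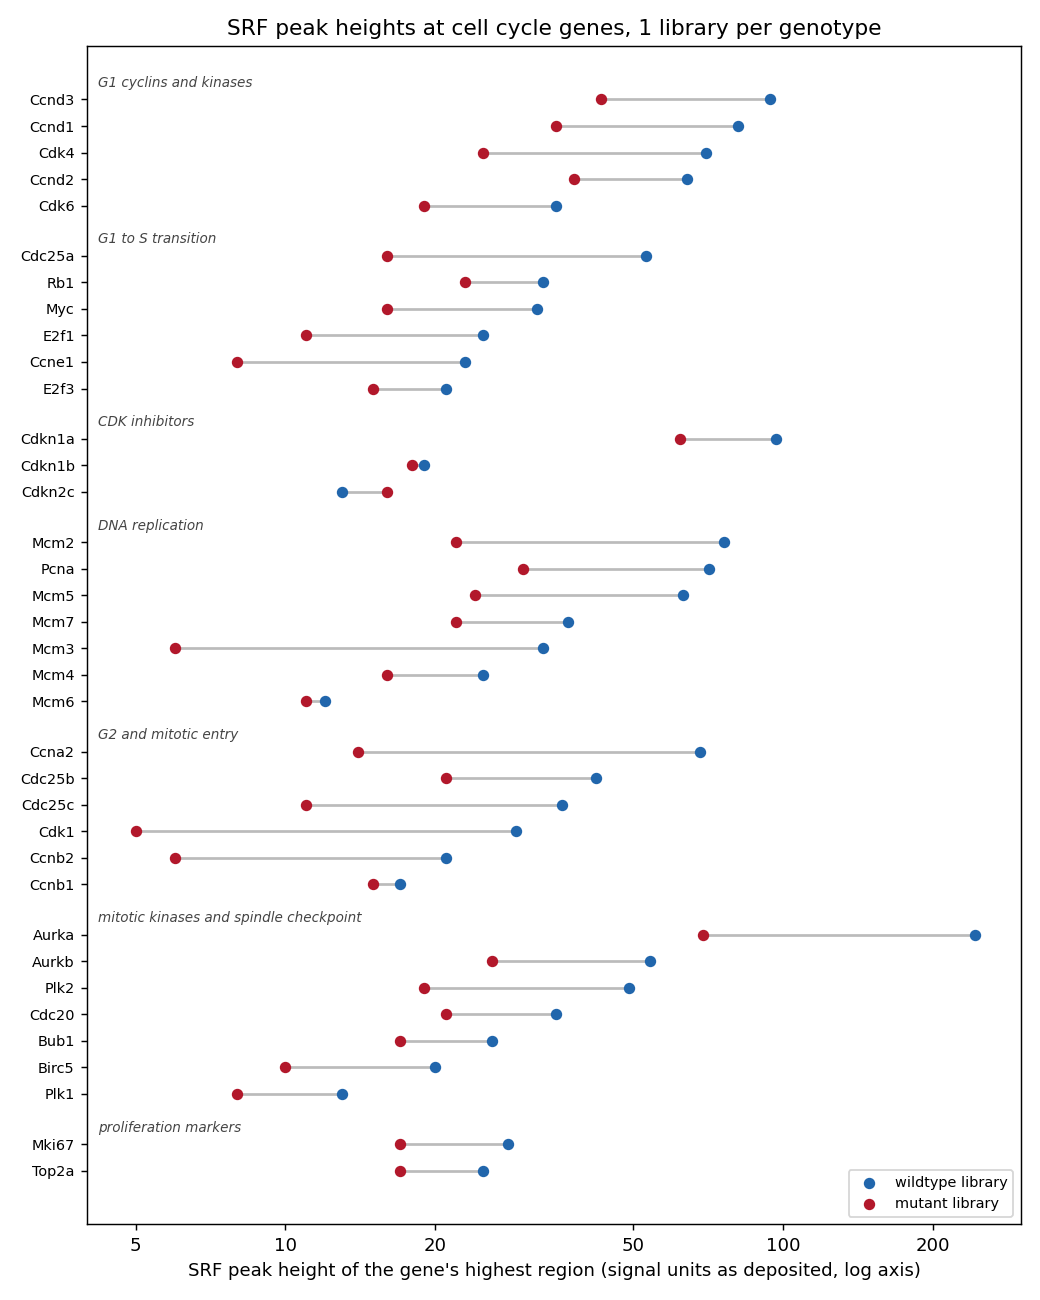
Peak height (log axis, units as deposited) of the highest SRF region of each of the 36 cell cycle genes, grouped by role; red points are the mutant and blue points the wildtype library, 1 library each, with no error bars. Cdkn2c is the only gene with the red point to the right, and the longest lines are those of Cdk1, Mcm3 and Ccna2.

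The ratios were also set against height and position. Over the 11 genes with a mean height of at least 40, the median ratio was -1.22 and 9 reached 2-fold lower (81.8%), against -1.18 and 70.1% over all genes of that class. Between 20 and 40 the values were -0.72 and 3 of 13 genes (23.1%), against -1.08 and 57.1%. Under 20 they were -0.79 and 5 of 12 (41.7%), against -0.89 and 45.3%. The 24 regions within 1 kb of a member's start had a median ratio of -0.71 and the 48 others -0.83, against -0.81 and -1.10 over all regions with an assigned gene. A CpG island overlapped 22 of these 24 regions (91.7%, against 84.6% of all regions within 1 kb of a start). With average in place of peak heights, 6 genes had log2 ratios closer to 0 by more than 1.5-fold, namely Ccna2, Mcm3 (-1.44), Mcm5 (-0.65), Mcm2 (-1.08), Plk2 (-0.73) and Aurkb (-0.44). The part of height and position in the members' ratios was not tested.

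Other genes of the pathway were taken from 6 lists holding 103 genes, of which 88 had a region (85.4%). An interval called in mutant was assigned to 65 (63.1%, against 49.6% of the protein-coding reference genes) and one called in wildtype to 87 (84.5%, against 65.5%). Among genes with a region, the mutant count was 65 of 88, a share close to the 12330 of all 16697. The median ratio over the 88 genes was -0.95, where 43 had a mutant height lower by 2-fold or more (48.9%) and 0 one higher by that much, beside 57.7% and 0.198% of all genes. Their median heights, 18 in mutant and 33 in wildtype, were close to those of the 36 genes.

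Among origin licensing and replication genes, 23 of 28 had a region. Gins3 and Gins4, subunits of the GINS complex of the replicative helicase, had the tallest, at 92 in mutant and 252 in wildtype over the Gins3 start and 94 and 227 at -248 bp from the Gins4 start. Mcm8 followed with 49 and 106 at the start of Crls1. Other cyclin and CDK genes had the highest list median, -0.50, with 10 of 11 genes above the median of all genes. They were led by Cdk9, a transcription elongation kinase gene, at 69 and 98, Cdk8 at 50 and 75 and Cdk14 at 30 and 59. The Cdk9 and Cdk8 regions lay nearer to the starts of Mir3960 and Mir5105. Other CDK inhibitor and pocket protein genes had a median of -1.09, with Cdkn2b, the p15 gene, at 38 and 83, Cdkn1c, the p57 gene, at 29 and 63 and Rbl2, which encodes p130, at 17 and 43. Of the 5 genes of this list with a region, 2 lay above the median ratio of all genes and 3 below. Cdkn2b and Cdkn1c were only just below it.

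E2F, DP and MuvB genes had a median ratio of -0.93, with E2f4 at 32 in mutant and 77 in wildtype, E2f2 at 24 and 76 and Tfdp2 at 20 and 65. Spindle checkpoint, kinetochore and anaphase-promoting complex genes also had -0.93, with Anapc2 at 39 and 82, Fzr1 at 18 and 100 and Cdc16 at 40 and 70. Fzr1, the other activator gene of the anaphase-promoting complex, had the lowest ratio of the lists among regions reaching 20, at -2.41. Cenpf, a kinetochore gene, had the highest, at 32 and 31 with a log2 ratio of 0.044. The remaining mitotic regulators had a median of -1.0, with Cks2 at 43 and 88, Ccnb1ip1 at 30 and 100 and Nek2 at 33 and 71. Several of these regions lay nearer to another gene's start, at 125 bp from Secisbp2 for Cks2, 38 bp from Ttc5 for Ccnb1ip1, 319 bp from Upf3a for Cdc16, 3690 bp from 4930404N11Rik for Fzr1 and -1209 bp from 4931428F04Rik for E2f4.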

How the data were processed

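SRF ChIP-seq was read from tables of the whole series, 1 mutant and 1 wildtype library. BWA and mm10 are named in the submitters' processing notes. Which program called intervals, at what threshold, how duplicates were handled and how libraries were scaled was not stated in the sources used here. Values are signal, deposited by the authors as a peak value and an average value of each interval and merged region (per the file headers). Intervals were called per library and assigned to genes by the authors, whose distances to gene starts are used. Coordinates are printed as listed; their counting base was not stated.

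Regions of the 38 genes were found by gene name. For each gene the region highest by mean height represented it, the first listed of ties. Log2 ratios used a pseudocount of 1. Called means at least 2-fold with that pseudocount, or an interval called by the authors. The members, their roles and the lists were chosen with earlier results of these data known. All members are named, and of each other list the 3 genes of highest mean height plus the highest and lowest ratio among regions reaching 20. The other lists were matched by gene ID through RefSeq, and promoters came from RefSeq GRCm38.p6. Calculations were tested on simulated data and used pandas 2.3.3, numpy 2.4.6 and scipy 1.17.1 under Python 3.11.15; figures used matplotlib 3.10.9. Alternatives were average heights, another pseudocount, common scaling and other choices of regions.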

Additional observations from a re-analysis of the deposited data

How the results depend on the processing

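No paired analysis was possible because there is 1 library for a genotype, so no library could be left out either. The median log2 ratio of the 36 genes, -0.96, was -0.62 with average in place of peak heights (-0.79 over all genes) and turned to 0.068 with common median scaling (-0.050 over all genes). It ranged from -0.93 to -0.70 with other choices, where the value over all genes or regions ranged from -1.11 to -0.79. These were a pseudocount of 5, every region, the region nearest to the start, regions within 1 kb and regions assigned to 1 gene (17 genes). The last choice, made after seeing the data, kept only the 25 genes whose highest region was not nearer to another gene. Within 1 kb the median was -0.79, equal to that of all genes with such a region. The count of genes at least 2-fold lower in mutant, 17, was 10 with average heights (30.4% of all genes) and 3 with common scaling. A minimum interval height of 24 was set, the median over the intervals of both libraries without scaling. It left 10 of the 27 genes with a mutant interval and 27 of the 36 with a wildtype interval. Intervals within 1 kb of a start left 12 in mutant and 23 in wildtype. The same shares over all genes were not computed, so these counts are no result about the members. With at most 1 letter off the CArG box, matching promoters went from 0 to 5. Common scaling turned the log2 ratio of Aurkb to 0.016, and it moved 32 other genes across the 2-fold line or across 0. The cause of these moves was not tested, except that stricter rules hold fewer intervals and scaling sets the median near 0 by construction. What depth limits at low regions was not computed, since depth is unknown.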
